A study of Mus musculus with 4 samples.

Results

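The mRNAs of the nuclear-encoded subunits of oxidative phosphorylation were compared between RNA immunoprecipitated with an anti-Cpeb4 antibody and RNA immunoprecipitated with a control anti-IgG antibody. Cpeb4 is an RNA-binding protein of the cytoplasmic polyadenylation element-binding family. The subunits were chosen by gene symbol, as the names of complex I to V subunits and of cytochrome c, without pseudogenes, and the rule found 84 genes among the 53379 in the deposited table. They comprised 35 genes of complex I, 4 of complex II, 9 of complex III, 19 of complex IV, 16 of complex V and 1 for the carrier cytochrome c. Ndufa4, named after complex I, was counted with complex IV, in whose structure it is now placed, and subunits whose symbols follow another pattern, such as Ndufab1, were outside the rule. All libraries came from mice of the CD1 strain, wild type and 7 or 8 days old, from the ventricular-subventricular zone, a neurogenic region lining the lateral ventricles. Each of 2 numbered experiments gave 1 Cpeb4 and 1 IgG library, and the labels do not state that the animals differed between them. The p-values therefore reflect only how these libraries vary, which could be technical variation. Tissue was lysed whole, no input library was analysed here, and the labels name no gate or transgene.

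Oxidative phosphorylation passes electrons from NADH through complex I, or from succinate through complex II, to ubiquinone, on to complex III, then by the soluble carrier cytochrome c to complex IV, which reduces oxygen. Complexes I, III and IV pump protons across the inner mitochondrial membrane, and complex V, the ATP synthase, uses the return flow to make ATP. Most subunits are encoded in the nucleus and translated in the cytosol, often from short and abundant mRNAs, while a few central membrane subunits are encoded by mitochondrial DNA. In the ventricular-subventricular zone, neural stem cells rely largely on glycolysis, and oxidative metabolism gains weight as they form neuroblasts.

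The 4 libraries held 35037171 and 24483742 reads on genes with the Cpeb4 antibody and 24094241 and 22486721 with IgG, as recovered from the deposited values. The mRNA of the antibody's target protein, Cpeb4, stood at 26.7 and 38.3 FPKM (fragments per kilobase of gene, scaled for depth by the authors) in the Cpeb4 libraries, against 9.04 and 9.66 FPKM in the IgG libraries. Markers of the labelled tissue were present: the summed level of 5 neuroblast markers (Dcx, Dlx1, Dlx2, Sox11 and Tubb3) was 411 and 410 FPKM in Cpeb4 libraries and 292 and 296 FPKM in IgG libraries. The sum of 5 stem and progenitor markers was 552 and 585 FPKM in Cpeb4 libraries and 296 and 288 FPKM in IgG libraries, most of it from Slc1a3 (468 and 500 FPKM with Cpeb4, 246 and 238 FPKM with IgG), while Nes was lower with Cpeb4. Oligodendrocyte markers (3 genes) summed to 212 and 196 FPKM with Cpeb4 and 141 and 135 FPKM with IgG, and microglial markers (2 genes) to 52.4 and 45.2 FPKM with Cpeb4 and 65.7 and 61.3 FPKM with IgG. Ependymal markers (3 genes) summed to 45.2 and 38.3 FPKM with Cpeb4 and 53.3 and 54.8 FPKM with IgG. Markers of neighbouring tissue were present as well. Striatal neuron markers (3 genes) summed to 261 and 237 FPKM with Cpeb4 and 236 and 233 FPKM with IgG. Choroid plexus markers (2 genes) summed to 68.0 and 62.3 FPKM with Cpeb4 and 57.4 and 52.9 FPKM with IgG. Nearly all of the choroid plexus sum was Ttr, with Kl at most 0.56 FPKM. None of these sums overlapped between the antibodies, which was not compared with all genes, and members of several sets did not move together. By log2 fold change (Cpeb4 over IgG), striatal Drd1 was at 0.89 but Ppp1r1b at -0.09 and Rgs9 at -0.03. Microglial Cx3cr1 was at -1.02 but Csf1r at -0.01, and ependymal Tmem212 at -0.69 but Foxj1 at 0.12. Of the neuroblast markers, Dcx was at 1.56 but Tubb3 at -0.07. The part of these sums in the differences below was not tested. Endothelial markers (2 genes) overlapped, at 26.8 and 18.1 FPKM with Cpeb4 and 21.2 and 19.3 FPKM with IgG. The 3 muscle markers summed to 1.62 and 1.55 FPKM with Cpeb4 and 1.87 and 1.96 FPKM with IgG, nearly all of it Acta1, with Myh2 and Ckm at most 0.12 and 0.18 FPKM.

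Most subunit mRNAs were not higher in the Cpeb4 immunoprecipitates, and the exceptions were few and named. Cytochrome c (Cycs), the complex III core protein Uqcrc2 and the coupling factor Atp5s were more than 2-fold higher with Cpeb4, while Cox8a of complex IV was 3.88-fold lower and the c-ring gene Atp5g2 2.18-fold lower. Of the 84 subunit genes, 78 reached the level for testing, an FPKM of 1 or more in 2 or more libraries. Of these 78, 7 (8.97%) were higher with Cpeb4 and 24 (30.8%) were lower at a limma adjusted p under 0.05, while 47 did not pass. Over all 15745 tested genes, 38.8% were called higher and 11.6% lower. The median log2 fold change (Cpeb4 over IgG, on log2(FPKM + 1)) was -0.11 for the subunits and 0.19 for all tested genes. In the first experiment the subunit median was -0.15 and in the second -0.13, and all 31 called subunits had the same sign in both. By complex, the medians in the first and second experiment were -0.16 and -0.13 for I, 0.12 and 0.12 for II, -0.15 and 0.07 for III, -0.42 and -0.37 for IV, and -0.08 and -0.13 for V. The fold changes compare RNA precipitated from lysed tissue by the Cpeb4 and IgG antibodies. Without an input library, the cells of origin, an mRNA's level in them and its recovery cannot be told apart.

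The size of the difference was modest for most called subunits. Of the 24 lower ones, 2 differed by at least 2-fold and 6 by at least 1.5-fold, and their median log2 fold change was -0.43. Of the 7 higher ones, 3 differed by at least 2-fold and 6 by at least 1.5-fold, with a median of 0.82. Library scaling changed the balance of calls. With limma on values scaled to read totals, 3 subunits were higher and 65 lower, where 17.5% of all genes were higher and 42.4% lower. Scaled to the upper quartile, 4 were higher and 60 lower, against 20.6% and 37.2% of all genes, and centred on the median gene, 6 were higher and 48 lower, against 22.9% and 30.8%. These scalings shifted the median of all tested genes to -0.24, -0.17 and -0.11, and the subunit median lay 0.29 to 0.37 log2 units below that of all genes under each. The 24 lower subunits were lower under all 4 scalings, and Cycs, Uqcrc2 and Atp5s were higher under all 4. Single libraries also moved the counts and medians. The subunit median minus that of all tested genes was -0.24 without the first IgG library and -0.34 without the second. It was -0.34 without the first Cpeb4 library and -0.29 without the second. Those fits used no experiment block.

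**Figure D1:**
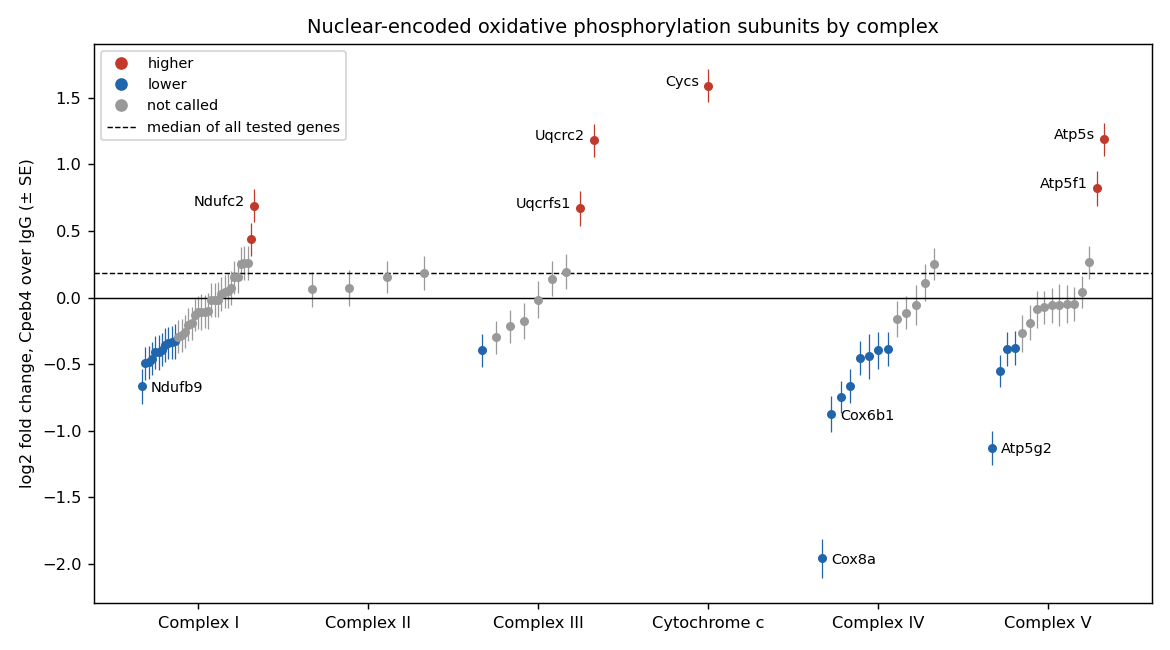
Log2 fold change of FPKM + 1, Cpeb4 over IgG, for the 78 tested subunit genes, grouped by complex and ordered by value; bars are limma standard errors and colours the call at an adjusted p under 0.05. Cycs lies highest at 1.59 and Cox8a lowest at -1.96, and no complex IV subunit is called higher.

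Complex I, the NADH dehydrogenase, had 2 of its 35 subunits higher and 11 lower, with a median log2 fold change of -0.11. The counts were 0 higher and 30 lower with read totals, 0 and 28 with the upper quartile, and 1 and 23 when centred on the median. Its conserved core enzymes and its accessory subunits gave different counts, a difference that was not tested. None of the 7 nuclear-encoded core subunits passed the test, and their log2 fold changes ran from -0.11 to 0.26 (limma; also 0 at an unadjusted p under 0.05, by limma-voom and in the authors' deposited table). Ndufs1, which carries iron-sulfur clusters, stood at 44.9 and 52.1 FPKM with Cpeb4 and at 41.3 and 39.1 FPKM with IgG, and did not pass (limma adjusted p = 0.0999). Both Cpeb4 values lay above both IgG values. All 13 called genes were among the 28 accessory subunits, whose median log2 fold change was -0.23.

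Ndufb9, an accessory subunit of the membrane arm, had the lowest log2 fold change of complex I. It measured 102 and 96.5 FPKM in the Cpeb4 libraries and 168 and 149 FPKM in the IgG libraries, with both Cpeb4 values under both IgG values. Its log2 fold change was -0.67 ± 0.13 (SE, n = 2 libraries per antibody; limma adjusted p = 0.000563). The other 10 lower subunits, Ndufa3, Ndufa5, Ndufa7, Ndufa9, Ndufa12, Ndufb3, Ndufb6, Ndufb8, Ndufb10 and Ndufv3, had log2 fold changes between -0.33 (Ndufa5) and -0.49 (Ndufv3). Ndufa5 passed narrowly, with a limma adjusted p of 0.0499. The Ndufa9 gene overlaps the annotated gene 1700018A23Rik, and the kit marks no strand, so reads of the overlapping stretch cannot be assigned to one of them.

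Ndufc2, an accessory subunit at the membrane arm, went the other way. It stood at 79.4 and 83.2 FPKM with Cpeb4 and at 50.7 and 49.2 FPKM with IgG, so every Cpeb4 value lay above every IgG value (log2 fold change 0.69 ± 0.13, SE; limma adjusted p = 0.000254). Ndufb2 measured 14.5 and 15.6 FPKM with Cpeb4 and 10.9 and 10.8 FPKM with IgG (0.44 ± 0.12; limma adjusted p = 0.00718). The Ndufb2 difference was the smallest among the higher subunits, and its sign turned to -0.04 when libraries were scaled to read totals. Ndufc2 lost its call with that scaling (0.18) and with the upper quartile (0.26). Ndufa1, a small membrane-arm subunit needed for assembly and among the most abundant of complex I, had 115 and 123 FPKM with Cpeb4 and 135 and 121 FPKM with IgG, which overlap.

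Complex II, succinate dehydrogenase, was the one complex with no called subunit in this comparison. Its 4 genes are all nuclear, and their log2 fold changes lay between 0.06 and 0.18, with a median of 0.12 against 0.19 for all tested genes. By limma at an unadjusted p under 0.05, by limma-voom and in the authors' deposited table the count was also 0. Sdha, the flavoprotein that oxidizes succinate, measured 135 and 125 FPKM with Cpeb4 and 129 and 118 FPKM with IgG. Sdhb, the iron-sulfur subunit, measured 155 and 137 FPKM with Cpeb4 and 148 and 133 FPKM with IgG. In both genes the antibodies overlap. Sdhc (21.9 and 20.4 FPKM with Cpeb4, 19.5 and 18.3 FPKM with IgG) showed no overlap. Sdhd (96.9 and 89.0 FPKM with Cpeb4, 85.6 and 78.0 FPKM with IgG) showed none either. With read-total scaling all 4 were called lower, and scaled to the upper quartile, 2 were lower. When a trend of fold change on gene length and level was removed, Sdha was called lower (-0.54). The absence of a call thus holds for the deposited scaling and for centring on the median gene.

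Complex III, the cytochrome bc1 complex, had 2 of 9 subunits higher and 1 lower, with a median log2 fold change of -0.01. The counts became 1 higher and 6 lower with read totals, 1 and 5 with the upper quartile, and 2 and 4 when centred on the median. Uqcrc2, a large matrix-side core protein, measured 84.9 and 84.4 FPKM with Cpeb4 and 37.6 and 35.9 FPKM with IgG. The pairs were tight and far apart, giving 1.18 ± 0.12 on the log2 scale (SE; limma adjusted p = 1.16e-06), a 2.27-fold difference on FPKM + 1. The gene lies at chr7:120635189-120659523 (GRCm38.p6) and overlaps Pdzd9. Its partner core protein Uqcrc1 did not pass, at 132 and 107 FPKM with Cpeb4 and 114 and 102 FPKM with IgG. The pairs of Uqcrc1 values overlap. Uqcrc1 was called lower with read totals (-0.37) and when a trend of fold change on gene length and level was removed (-0.41). With the upper quartile or centred on the median it was not called. The difference between these partners was not tested.

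Uqcrfs1, the Rieske iron-sulfur protein that takes electrons from ubiquinol, was also higher, with 74.3 and 84.2 FPKM with Cpeb4 and 51.4 and 47.3 FPKM with IgG (0.67 ± 0.13, SE; limma adjusted p = 0.000448). It lost its call when scaled to read totals (0.16) or to the upper quartile (0.25). Cyc1, the cytochrome c1 heme protein that passes electrons to cytochrome c, had 140 and 121 FPKM with Cpeb4 and 156 and 139 FPKM with IgG, and did not pass (limma adjusted p = 0.293), though the other 3 scalings each called it lower (-0.69, -0.61 and -0.47). Uqcrh, the hinge protein that helps cytochrome c dock on cytochrome c1, was the only subunit of the complex called lower on the deposited scaling. It measured 50.1 and 48.0 FPKM with Cpeb4 and 65.1 and 64.8 FPKM with IgG, without overlap (-0.40 ± 0.12; limma adjusted p = 0.0141). The Uqcrh gene overlaps Gm12854. Uqcr11, a small accessory subunit, had 126 and 97.8 FPKM with Cpeb4 and 106 and 89.2 FPKM with IgG and did not pass.

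Cycs, the electron carrier that also triggers apoptosome assembly when released from mitochondria, had the highest log2 fold change of all subunits. It stood at 39.2 and 36.5 FPKM with Cpeb4 and at 12.7 and 11.1 FPKM with IgG. Each Cpeb4 library was far above each IgG library, a log2 difference of 1.59 ± 0.12 (SE; limma adjusted p = 7.62e-08), or 3.02-fold on FPKM + 1. The authors' deposited table gives a log2 fold change of 1.66 for Cycs, with an adjusted p of 9.52e-23. Cycs lies at chr6:50562563-50566569 (GRCm38.p6), and the listed pseudogenes Cycs-ps2 and Cycs-ps3 were at most 0.63 and 0.34 FPKM in any library. Among all tested genes, the upper 5% began at a log2 fold change of 1.31.

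Complex IV, cytochrome c oxidase, held no higher subunit and 8 lower ones among its 13 tested genes, with a median log2 fold change of -0.40. Under the other 3 scalings 11 or 12 of the 13 were lower and none was higher, and the count of higher subunits was also 0 at an unadjusted p under 0.05, by limma-voom and in the authors' deposited table. Leaving out 1 Cpeb4 library gave 1 higher subunit each time, Cox7c without the first and Cox7a2l (0.32) without the second. Cox8a, a small membrane subunit, led the list. It measured 135 and 127 FPKM in the Cpeb4 libraries and 523 and 500 FPKM in the IgG libraries. No values came near each other, with -1.96 ± 0.14 on the log2 scale (SE; limma adjusted p = 6.74e-08). In reads, Cox8a had 2262 and 1371 with Cpeb4 and 8271 and 7391 with IgG. The gene lies at chr19:7215158-7217616 (GRCm38.p6). The authors' deposited table gives a log2 fold change of -1.97 for Cox8a with an adjusted p of 1.98e-36.

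Cox8a weighed on the summed level of the complex. Complex IV subunits summed to 1085 and 1045 FPKM with Cpeb4 and to 1726 and 1633 FPKM with IgG, and Cox8a made up 12.5% and 12.1% of the sum with Cpeb4 and 30.3% and 30.6% with IgG. Without Cox8a the sums were 949 and 919 FPKM with Cpeb4 and 1203 and 1133 FPKM with IgG, so both Cpeb4 sums stayed below both IgG sums. The sums of complex I were 1468 and 1395 FPKM with Cpeb4 and 1646 and 1492 FPKM with IgG. Complex III summed to 753 and 704 FPKM with Cpeb4 and 708 and 638 FPKM with IgG, and complex V to 1379 and 1334 FPKM with Cpeb4 and 1452 and 1395 FPKM with IgG. Complex II gave 409 and 372 FPKM with Cpeb4 and 382 and 348 FPKM with IgG. The sums of the antibodies overlap in complexes II and III and do not in I, IV and V. In both experiments the Cpeb4 sum exceeded the IgG sum for complexes II and III and stayed below it for I, IV and V.

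Other subunits that surround the catalytic core of complex IV were lower by less. Cox6b1, which faces the intermembrane space, measured 103 and 102 FPKM with Cpeb4 and 194 and 185 FPKM with IgG (-0.88 ± 0.13, SE; limma adjusted p = 4.96e-05). Cox6c measured 16.7 and 17.6 FPKM with Cpeb4 and 29.8 and 29.0 FPKM with IgG (-0.74 ± 0.12; limma adjusted p = 9.16e-05). Cox7a2 measured 49.9 and 52.9 FPKM with Cpeb4 and 84.0 and 80.2 FPKM with IgG (-0.67 ± 0.13; limma adjusted p = 0.000375). In each of these genes all Cpeb4 values lay below all IgG values. Cox4i1, the subunit through which ATP regulates the enzyme, measured 164 and 155 FPKM with Cpeb4 and 219 and 201 FPKM with IgG (-0.40 ± 0.14; limma adjusted p = 0.0258). Cox5b and Ndufa4 were also lower, at -0.39 and -0.45 on the log2 scale. Cox7a2 overlaps the genes Gm51685 and Tmem30a.

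The abundant Cox6a1 was not among the lower genes. This subunit, involved in dimer formation and regulation and second to Cox8a within the complex by mean FPKM over the 4 libraries, measured 314 and 259 FPKM with Cpeb4 and 305 and 288 FPKM with IgG. These values overlap, and its log2 fold change of -0.05 did not pass. Cox5a, Cox7b and Cox7c did not pass either, at -0.11, -0.16 and 0.11. Cox7a2l, which joins complexes III and IV into supercomplexes, measured 31.0 and 28.1 FPKM with Cpeb4 and 25.3 and 24.0 FPKM with IgG, with no overlap but a limma adjusted p of 0.0968. The other 3 scalings each called Cox6a1 lower, and no scaling called Cox7a2l.

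Several complex IV subunits exist as isoforms, of which one is broadly expressed and another is typical of muscle or testis. The tissue isoforms were near background here. Cox6a2, Cox7a1 and Cox8b, known from heart and skeletal muscle, Cox7b2 and Cox8c, known from testis, and Cox4i2, known from lung and oxygen response, did not reach the level for testing, with at most 1.02 FPKM in any library. Cox6a2 had 0.34 and 0.15 FPKM with Cpeb4 and 0.91 and 0.54 FPKM with IgG, against 259 to 314 FPKM for Cox6a1. Cox6b2, a testis isoform, was tested and measured 0.61 and 1.03 FPKM with Cpeb4 and 1.24 and 1.70 FPKM with IgG, from 11 and 12 reads with Cpeb4 and 21 and 27 reads with IgG. Its limma adjusted p was 0.0413 at a log2 fold change of -0.44, over alternatives the adjusted p ranged from 0.000203 to 0.344, and the authors' deposited table gives 0.519.

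Complex V, the ATP synthase, had 2 of 16 genes higher and 4 lower, with a median log2 fold change of -0.07. The counts were 1 higher and 13 lower with read totals, 2 and 13 with the upper quartile, and 2 and 10 when centred on the median. On the deposited scaling, the catalytic F1 part showed no call among its 5 subunits. Atp5b, the beta subunit that forms the catalytic sites and the most abundant of the subunit mRNAs by mean FPKM over the 4 libraries, although Cox8a stood above it in both IgG libraries, measured 460 and 433 FPKM with Cpeb4 and 473 and 456 FPKM with IgG. Atp5a1, the alpha subunit, measured 167 and 151 FPKM with Cpeb4 and 169 and 169 FPKM with IgG. The Atp5b values overlap, both Atp5a1 values with Cpeb4 lie just below those with IgG, and neither gene passed. Among the 5 F1 subunits, 1 had an unadjusted p under 0.05, and 0 were called by limma-voom or in the authors' deposited table. With read totals or the upper quartile, Atp5b and Atp5a1 were both called lower, at -0.57 and -0.60 or -0.49 and -0.52. Centred on the median, Atp5a1 was called lower (-0.39) and Atp5b was not (-0.36). With the trend on gene length and level removed, Atp5b (-0.46) and Atp5a1 (-0.67) were again both called lower.

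The c ring, the rotor that proton flow turns, is encoded by 3 genes that give the same mature protein with different import sequences, and 2 of the 3 were lower. Atp5g2 measured 16.9 and 14.5 FPKM with Cpeb4 and 33.9 and 36.7 FPKM with IgG, with every Cpeb4 value below every IgG value (-1.13 ± 0.13, SE; limma adjusted p = 2.36e-06). Atp5g1 measured 17.6 and 14.3 FPKM with Cpeb4 and 21.0 and 20.8 FPKM with IgG (-0.38 ± 0.13; limma adjusted p = 0.0201). Atp5g3, the most abundant of the genes, measured 147 and 152 FPKM with Cpeb4 and 184 and 177 FPKM with IgG, without overlap but with a limma adjusted p of 0.117. The other 3 scalings each called Atp5g3 lower. The difference between Atp5g2 and its partners was not tested. Atp5g2 lies at chr15:102662868-102671047 (GRCm38.p6).

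Other parts of the ATP synthase split in both directions. Atp5s, coupling factor B, an accessory protein rather than a structural subunit, measured 21.4 and 25.2 FPKM with Cpeb4 and 9.54 and 9.73 FPKM with IgG (1.19 ± 0.12, SE; limma adjusted p = 1.06e-06), a 2.28-fold difference. Atp5f1, the b subunit of the peripheral stalk that holds F1 still, measured 103 and 115 FPKM with Cpeb4 and 63.0 and 59.9 FPKM with IgG (0.82 ± 0.13; limma adjusted p = 7.44e-05). All Cpeb4 values of these genes lay above all IgG values. Atp5h, the d subunit of the same stalk, was lower, at 68.3 and 67.0 FPKM with Cpeb4 and 89.0 and 88.3 FPKM with IgG (-0.39 ± 0.13; limma adjusted p = 0.0186). Atp5k, the e subunit that helps dimers form, was lower too, at 22.5 and 20.8 FPKM with Cpeb4 and 35.1 and 29.3 FPKM with IgG (-0.55 ± 0.12; limma adjusted p = 0.00138). The Atp5f1 call was lost when scaled to read totals (0.31) and when the trend on gene length and level was removed (0.28).

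**Figure D2:**
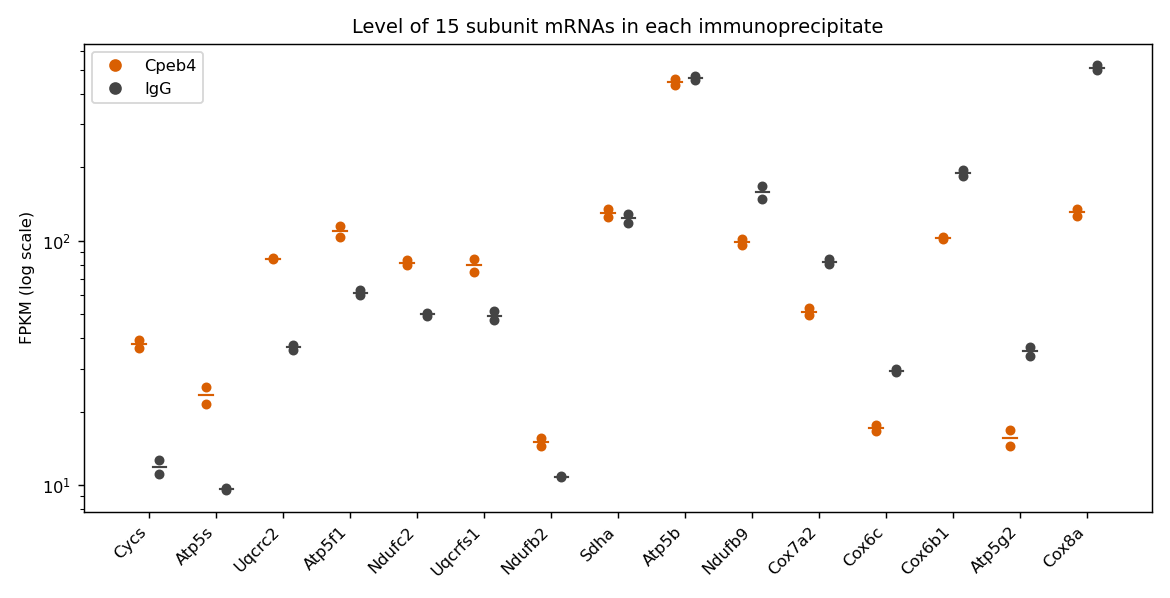
FPKM on a log axis of 15 subunit mRNAs in each library, Cpeb4 left of IgG; points are libraries (n = 2 per antibody) and short lines their means. Cycs, Atp5s, Uqcrc2, Atp5f1, Ndufc2, Uqcrfs1 and Ndufb2 lie higher with Cpeb4, Sdha and Atp5b overlap, and the last 6 genes, up to Cox8a, lie lower with Cpeb4.

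The genes at the ends of the range also served to look at the sequence upstream of subunit genes, since nuclear respiratory factor 1 (NRF-1) was first found through the cytochrome c promoter. The letters of the core of its site, GCATGCGC, were searched on both strands in the 250 bases before each RefSeq gene start (GRCm38.p6). They were present in 9 of the 67 subunits matched by symbol (13.4%) and in 2.56% of 27025 genes with such a sequence. Those were Cycs, Atp5g2, Atp5k, Atp5l, Cox6a1, Ndufa6, Ndufa8, Ndufa11 and Sdhb. The match thus stood in 1 of 4 matched higher subunits and in 2 of 21 matched lower ones, so the gene with the highest and a gene with nearly the lowest fold change share it. The sequences of Cycs (chr6:50566570-50566819, minus strand), Atp5g2 (chr15:102671048-102671297, minus strand) and Cox8a (chr19:7217617-7217866, minus strand) are shown 5′ to 3′ for that contrast, with matches in capitals. In Atp5g2 a pair of overlapping matches on opposite strands forms 1 run of capitals, and Cox8a has none.
Cycs: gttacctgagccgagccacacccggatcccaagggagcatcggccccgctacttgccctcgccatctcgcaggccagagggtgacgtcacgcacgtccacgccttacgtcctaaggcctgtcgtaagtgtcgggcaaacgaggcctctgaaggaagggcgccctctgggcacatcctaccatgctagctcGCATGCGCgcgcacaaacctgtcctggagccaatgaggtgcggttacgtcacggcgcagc
Atp5g2: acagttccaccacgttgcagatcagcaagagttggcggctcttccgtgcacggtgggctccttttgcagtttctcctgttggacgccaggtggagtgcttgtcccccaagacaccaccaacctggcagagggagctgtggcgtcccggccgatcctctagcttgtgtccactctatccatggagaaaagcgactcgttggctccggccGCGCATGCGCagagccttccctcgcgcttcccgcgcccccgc
Cox8a: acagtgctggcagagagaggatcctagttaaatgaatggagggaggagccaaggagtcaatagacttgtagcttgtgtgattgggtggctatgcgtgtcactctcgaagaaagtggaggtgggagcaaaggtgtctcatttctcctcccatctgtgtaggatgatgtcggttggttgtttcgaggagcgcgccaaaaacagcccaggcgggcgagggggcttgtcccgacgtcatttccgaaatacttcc
The capitals begin at position -60 in Cycs and -42 in Atp5g2, counted back from the gene start. A match describes these letters only, and the assay measured precipitated RNA, not the factor.

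Gene length here is the summed exon length implied by the deposited FPKM, which can exceed the length of an mRNA. For Atp5g1 it was 4715 bases, longer than the gene's RefSeq span (chr11:96072793-96075694, GRCm38.p6). Gene length in this sense went with the fold change across the transcriptome. Median length was 1896 bases in the 7 higher subunits, 791.5 bases in the 24 lower ones and 1232 bases in the 47 not called, against 3054 bases over all tested genes. Spearman's rho between length and log2 fold change was 0.33 over the 78 subunits, 0.31 without Cycs and 0.30 over the 15633 tested genes with a length. Within complexes it was 0.15 for I (n = 35), 0.35 for III (n = 9), 0.31 for IV (n = 13) and 0.43 for V (n = 16). These points share libraries and are a description across genes, which are not replicates.

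When all tested genes were split by length into 5 bins of near-equal size, 49 of the 78 subunits fell in the shortest bin (27 to 1451 bases). Of these 49, 2 were higher and 20 lower (40.8%), with a median log2 fold change of -0.19, while of all genes in the bin 19.6% were higher and 26.4% lower, with a median of -0.07. In the next bin (1452 to 2547 bases), 3 of 17 subunits were higher and 2 lower (11.8%), against 31.8% and 10.7% of all genes. The remaining 12 subunits lay in the 3 longer bins, with 2 higher and 2 lower. Of all genes in those bins, 40.4%, 50.1% and 53.1% were higher and 7.33%, 5.53% and 6.5% lower. By summed exons Cox8a (545 bases), Cox6b1 (618 bases) and Atp5g2 (753 bases) are short, as is the higher Ndufc2 (683 bases). The lower Cox6c has 3038 bases by that measure and Cycs 3123 bases. The lengths of the mRNAs themselves were not measured. After the trend of fold change on length and level over all genes was removed, Cycs stood at 1.18, Uqcrc2 at 0.78, Atp5g2 at -1.23 and Cox8a at -2.15. With that correction, 5 subunits were higher and 45 lower with limma. Of all 15633 genes in that fit, 3741 were higher and 3971 lower, against 6106 and 1822 of 15745 without the correction. The subunit median lay 0.35 below that of all genes.

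**Figure D3:**
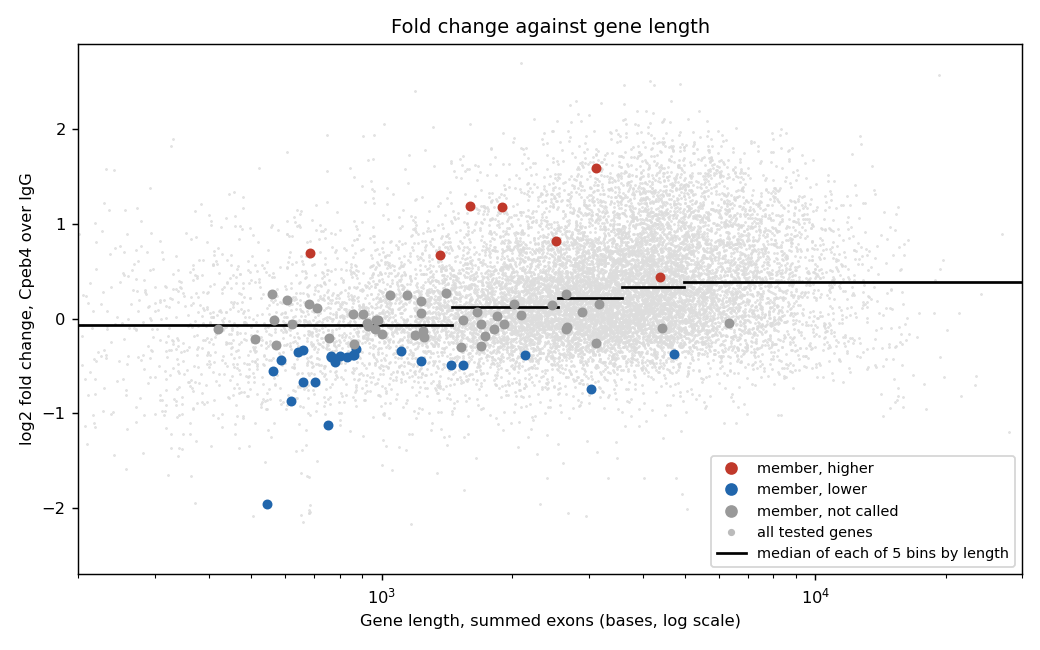
Log2 fold change (Cpeb4 over IgG) against gene length in bases on a log axis cropped at both ends; small grey points are tested genes, coloured points the 78 tested subunits by call, and black lines the median of each of 5 bins of genes by length. The medians run from -0.07 in the shortest bin to 0.39 in the longest, and most lower subunits lie at the short end.

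Genes that serve the same pathway without being nuclear subunits gave other counts. Assembly factors, which build the complexes and insert their cofactors, had 24 of 45 tested genes higher (53.3%) and 3 lower (6.67%), against 38.8% and 11.6% of all tested genes, with a median log2 fold change of 0.35. Ndufaf4, a complex I assembly factor, measured 14.3 and 20.3 FPKM with Cpeb4 and 6.53 and 6.32 FPKM with IgG (1.28 ± 0.14, SE; limma adjusted p = 1.63e-06). Cox15, which makes the heme A of complex IV, measured 29.1 and 30.8 FPKM with Cpeb4 and 12.01 and 11.62 FPKM with IgG (1.27 ± 0.12; limma adjusted p = 4.74e-07). Coa6, which acts in copper delivery to complex IV, had a log2 fold change of 1.23. The 3 lower ones were Pet100 (-0.56), Foxred1 (-0.46) and Uqcc2 (-0.36). With read totals, 9 assembly factors were higher and 16 lower (all genes 17.5% and 42.4%), with the upper quartile 13 and 12 (20.6% and 37.2%), and centred on the median 13 and 8 (22.9% and 30.8%). Their median lay 0.11 to 0.16 above that of all genes under the 4 scalings. With the length and level trend removed, 13 were higher and 6 lower, beside the counts of all genes given above for that fit. Their median then lay 0.19 above that of all genes.

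Regulators of mitochondrial biogenesis had 10 of 21 genes higher with limma (47.6%, against 38.8% of all tested genes) and none lower (against 11.6%), with a median of 0.32. At an unadjusted p under 0.05, 1 was lower, as was 1 by limma-voom and 0 in the authors' deposited table. Tfb2m, a mitochondrial transcription factor, measured 18.0 and 20.3 FPKM with Cpeb4 and 5.95 and 6.20 FPKM with IgG (1.51 ± 0.12, SE; limma adjusted p = 1.21e-07). Gabpa, a subunit of nuclear respiratory factor 2, had a log2 fold change of 1.33, and Tfam, which packages mitochondrial DNA, one of 1.14. Gabpa overlaps the subunit gene Atp5j, which itself did not pass (-0.05). With read-total scaling, 6 regulators were higher and 9 lower, with the upper quartile 6 and 8, and centred on the median 7 and 8, beside the shares of all genes given above for these scalings. Their median lay 0.12 to 0.13 above that of all genes under the 4 scalings. With the length and level trend removed, 8 were higher and 6 lower, and their median lay 0.097 above that of all genes. The median length was 3656 bases in the regulators and 1128.5 bases in the tested subunits. The part of length in these counts was not tested.

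Of the 13 mRNAs encoded in mitochondrial DNA, 7 were tested and 5 were higher with Cpeb4 (71.4%, against 38.8% of all tested genes), all of them complex I subunits (mt-Nd1, mt-Nd2, mt-Nd4, mt-Nd5 and mt-Nd6). mt-Nd4 measured 763 and 1123 FPKM with Cpeb4 and 454 and 475 FPKM with IgG (0.99 ± 0.18, SE; limma adjusted p = 0.000222). mt-Co1 of complex IV measured 1143 and 1415 FPKM with Cpeb4 and 1164 and 1136 FPKM with IgG, which overlap, and mt-Cytb of complex III did not pass either. mt-Nd1 and mt-Nd6 had log2 fold changes of 0.87 and 0.81. The other 6 (mt-Nd3, mt-Nd4l, mt-Co2, mt-Co3, mt-Atp6 and mt-Atp8) were at most 1.33 FPKM in any library and were not tested. Whether such low values reflect the RNA or the counting of its reads was not tested. The 5 higher ones thus describe only the 7 tested mRNAs. Scaled to read totals, 1 of the 7 was higher and 1 lower, with the upper quartile 3 and 1, and centred on the median 4 and none. With the length and level trend removed, 3 were higher and 0 lower. On the deposited scaling, none was lower at an unadjusted limma p under 0.05, by limma-voom or in the authors' deposited table.

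**Figure D4:**
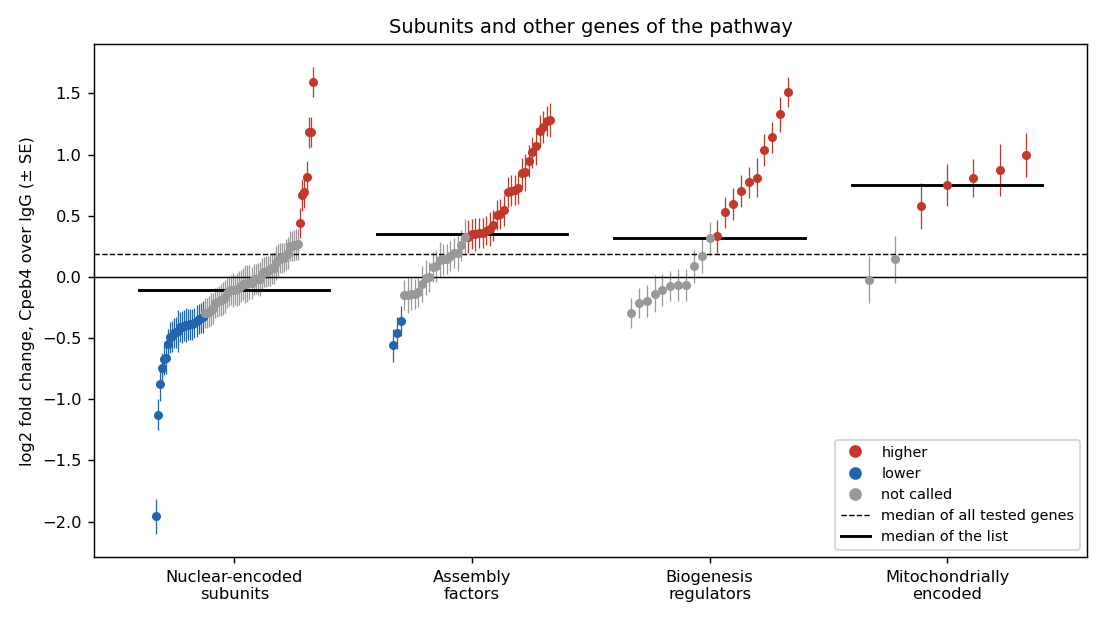
Log2 fold change (Cpeb4 over IgG, limma standard errors) of every tested gene of the nuclear-encoded subunits and of 3 other lists of the pathway, ordered within each list and coloured by call, with the median of each list and of all tested genes (0.19). The subunit median is -0.11, against 0.35 for assembly factors, 0.32 for biogenesis regulators and 0.75 for mitochondrially encoded mRNAs.

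The authors' deposited comparison gave an adjusted p for 82 of the 84 subunits. At a threshold of 0.05 in the authors' deposited table, 7 subunits were higher and 14 lower, where 21.7% of all genes with an adjusted p were higher and 4.93% lower. All 7 and all 14 were called in the same direction with limma. Of the tested subunits, 62 of 78 had the same sign in both experiments, and the largest gap between the experiments' log2 fold changes was 0.48 over the tested and 0.41 over the called subunits.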

How the data were processed

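The data were 4 libraries of immunoprecipitated RNA, 2 with anti-Cpeb4 and 2 with anti-IgG; the experiment numbers in the labels each hold 1 of both. Per the labels' protocols, the MAGNA RIP kit gave the RNA, and cDNA came from a SMART-Seq v4 low input kit, which does not mark strand, followed by Nextera XT libraries. The submitters' processing notes list STAR 2.6.0c, HTSeq 0.6.1p2, DESeq, DESeq2 1.26.0, Trim Galore 0.5.0, FastQC 0.11.5 and the build mm10 without their roles. Per the file headers, the deposited table holds FPKM per library, a mean level (a signal, the authors' mean of scaled reads), and the authors' log2 fold change with its adjusted p-value.

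Steps of 1 read in FPKM, joined to the mean level, gave whole reads within 0.01 for 100% of values and, from them, gene lengths. Reads come from amplified cDNA without molecular identifiers, so they are not independent molecules. The test was limma 3.58.1 (R 4.3.3) on log2(FPKM + 1) for the 15745 genes that reached 1 FPKM in 2 or more libraries, with a trended prior, antibody as effect and experiment as block, two-sided, with Benjamini-Hochberg adjustment over all tested genes and calls at 0.05. This scale understates changes of low genes. The block left 1 residual degree of freedom, to which the prior added 14.6. The chi-square per degree of freedom between replicates was 20.2 (Cpeb4) and 4.28 (IgG), more than 1 library deposited again would give.

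Named by rule were the subunits with the largest called changes per complex, every higher one, the 3 most abundant of complexes I, III, IV and V, the isoform sets and the 3 largest called changes of each other list; further subunits were named after their values were seen, and 1 subunit that the rule selects is not reported here. The subunits, lists and tests were chosen with earlier results of these data known. Alternatives were other scalings, filters, a pseudocount of 0.1, no block, limma-voom on recovered reads, removal of a loess trend (span 0.5) on length and level, and leaving out each library.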

Additional observations from a re-analysis of the deposited data

How the results depend on the processing

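The direction and call of Cycs, Uqcrc2, Atp5s, Cox8a, Atp5g2, Cox6b1 and Cox7a2 held under every alternative run. Counts and medians moved more. Scaled to read totals, 3 subunits were higher and 65 lower, and the medians minus all genes were -0.38 (complex I), -0.15 (II), -0.66 (IV) and -0.34 (V). Scaled to the upper quartile, 4 were higher and 60 lower, with -0.37, -0.14, -0.65 and -0.33 for the same complexes; centred on the median, 48 were lower. With a pseudocount of 0.1 complexes I, II and V stood at -0.34, -0.10 and -0.29, and with limma-voom at -0.35, -0.11 and -0.30. Without a filter, 7 subunits and 875 of all 46911 genes were lower. Complexes I to V then stood at -0.048, 0.18, 0.047, -0.29 and -0.0039 and cytochrome c at 1.66, so II and III turned sign. With FPKM of at least 5, I, II, IV and V stood at -0.43, -0.20, -0.71 and -0.39 and cytochrome c at 1.28. With the length and level trend removed, 45 subunits and 3971 of all 15633 genes were lower. Complexes II and V and cytochrome c then stood at -0.24, -0.37 and 1.21. Leaving out 1 library gave 6 to 15 higher and 5 to 30 lower, with complex I at -0.38 to -0.25, II at -0.12 to -0.025, V at -0.34 to -0.23 and cytochrome c at 1.32 to 1.48. With read totals and with the trend removed, Ndufb2 turned to -0.040 and -0.022, not called, and Uqcrc1 to -0.37 and -0.41, called lower. The cause of these moves was not tested.

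The experiment numbers showed no pairing in the data (correlation of deviations -0.00094); without the replicate block 7 subunits were higher and 22 lower, and of the named subunits Cox6b2 lost its call. With 2 libraries per antibody, the smallest difference that was called was that of Ndufa5 (-0.33), and the Cox6b2 call rests on 11 to 27 reads per library.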
